A study of Mus musculus and Homo sapiens with 23 samples.

Results

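The interleukin 6 and interleukin 12 families are secreted cytokines that share receptor parts and helical folds. Described here are 10 genes: the single-chain cytokines Il6, Lif and Osm, the subunit genes Il12a, Il12b, Il23a, Il27 and Ebi3, from which the paired cytokines of the Il12 family are assembled, and the receptor chains Il6ra and Il6st. The cells were BV2, an immortalised mouse line of microglia, the resident macrophages of the brain. A symbol was given to each row of the deposited tables through its RefSeq accession, and rows of 1 symbol were summed. Of the 10 genes, 9 had a row, among 21593 genes in all. No row's accession was paired with Il12b by the name table, and its expression was not analysed here.

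Both groups are the same cell line. One library came from BV2 cells without stimulation. The other came from BV2 cells after 3 h with lipopolysaccharide (LPS), a bacterial cell wall component that macrophages sense through Tlr4. Neither the dose of LPS nor the number of cultures per library is given in the sources read here. Another 21 samples of the series, all chromatin immunoprecipitation or input libraries, were not used here. The study asked how a histone mark, H2BK20ac, relates to cell-type expression and to a change of cell state such as this one.

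Interleukin 6 binds its own receptor chain, Il6ra, and the complex then recruits the shared signalling chain gp130, the product of Il6st, which activates JAK kinases and the transcription factor Stat3. Lif and oncostatin M (Osm) also signal through gp130, each with a further receptor chain. In the Il12 family a helical subunit pairs with a receptor-like one: Il12a with Il12b in IL12, Il23a with Il12b in IL23, and Il27 with Ebi3 in IL27. Macrophages and microglia are known sources of these cytokines after contact with bacterial products.

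The promoters of 3 of the genes are shown because their start sites lie beside stretches that resemble binding sequences of LPS-activated factors, while the transcripts of these 3 genes behaved differently. Each is the 250 bases upstream of the start site in RefSeq's annotation of GRCm38.p6, on the strand of the gene. Capitals mark matches, on either strand, to the NF-kB consensus (kappaB), to the AP-1 sequence TGANTCA and to the C/EBP sequence TTGCNNAA, and no marked stretches overlap. The windows are chr5:30012864-30013113 (plus strand) for Il6, chr17:55952373-55952622 (plus strand) for Ebi3 and chr11:4257318-4257567 (plus strand) for Lif.
Il6: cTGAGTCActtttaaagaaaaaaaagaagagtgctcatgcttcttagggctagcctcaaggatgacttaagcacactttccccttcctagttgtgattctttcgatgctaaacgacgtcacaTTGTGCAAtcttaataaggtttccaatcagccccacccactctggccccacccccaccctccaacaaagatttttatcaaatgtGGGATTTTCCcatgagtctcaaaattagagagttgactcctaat
Ebi3: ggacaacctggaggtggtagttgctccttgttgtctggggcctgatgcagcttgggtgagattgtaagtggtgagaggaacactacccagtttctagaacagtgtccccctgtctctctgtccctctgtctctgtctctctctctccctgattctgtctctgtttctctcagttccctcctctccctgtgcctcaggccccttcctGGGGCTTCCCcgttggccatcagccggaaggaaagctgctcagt
Lif: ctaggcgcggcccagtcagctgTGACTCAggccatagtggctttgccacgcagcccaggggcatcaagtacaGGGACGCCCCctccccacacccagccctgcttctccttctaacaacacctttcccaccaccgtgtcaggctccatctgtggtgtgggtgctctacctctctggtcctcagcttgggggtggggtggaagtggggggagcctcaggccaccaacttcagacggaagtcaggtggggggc

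In both Il6 and Ebi3 the kappaB match ran from base -44 to base -35, counted back from the start site. The Il6 window also held an AP-1 match at -249 to -243 and a C/EBP match at -128 to -121. The Lif window held a kappaB match farther out, at -178 to -169, and an AP-1 match at -228 to -222. Over all 32851 promoter windows of the same length, 7.25% held a kappaB match, 6.75% an AP-1 match and 9.56% a C/EBP match. The interferon-stimulated response element (ISRE), present in 2.98% of windows, was in no window of these genes. The PU.1 sequence GAGGAA, present in 23.3%, occurred once in the windows of Ebi3 and Il6ra and 2 times in that of Il12b. Il6st and both windows of Il12a held 0 matches to the 5 sequences. A match is a string of letters and not a measured binding site. No window was given for Osm, Il23a or Il27.

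Each library's table gave FPKM, the number of fragments relative to transcript length and sequencing depth, and a lower and an upper bound for every row. The bounds in parentheses after an FPKM are this deposited 95% interval, which covers counting and fragment assignment inside 1 library and not the spread between cultures. With 1 library per group there was no replicate check and no test, and every difference is one between these 2 libraries. Changes are differences in log2(FPKM + 1), LPS minus unstimulated, and understate the fold of genes of low FPKM. A gene was counted if at least 1 library reached an FPKM of 1, and it was called higher or lower at a change of at least 1, a fold of 2 on this scale. Where the bounds follow the square root of a count, they imply the number of fragments behind a value, and their sums were about 13800000 (unstimulated) and 16930000 (LPS). Over all 10034 counted genes, 8.54% were called higher and 12.4% lower, and the intervals of 73.6% were separate. Of the calls, 40.7% were higher and 59.3% lower, against 24.6% and 75.4% after rescaling to TPM, 59.1% and 40.9% after median scaling and 53.3% and 46.7% after quantile normalisation. Of 10 microglia and macrophage markers with a row, 9 reached an FPKM of 1 without LPS and 7 after it, whereas Cx3cr1 was at 0.142 and 0.0615. Those below 1 only after LPS were P2ry12 (1.19 and 0.223) and Tmem119 (2.16 and 0.601). The neuronal markers summed to 0.0300 and 0.171 FPKM and the lymphocyte markers to 0.0472 and 0.0300. The other lists were each carried mainly by 1 gene: astrocytes at 42.2 and 41.9 (Aldoc), dendritic cells at 24.7 and 31.7 (Itgax), oligodendrocytes at 5.17 and 8.63 (Cnp), and fibroblasts with endothelium at 5.49 and 4.84 (Kdr). Among their defining markers, Gfap, Aqp4, Cd209a, Mog, Olig2 and Col1a1 were listed at 0 in both libraries.

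After LPS the cytokine genes of both families rose where they were counted, and the receptor chain Il6ra fell. Il6 and Il27 went from near 0 or 0 to the level of abundant transcripts, Osm, Ebi3 and Il23a rose from different starting levels, and Lif and Il12a stayed near 0. Of the 9 genes with a row, 5 were higher and 1 was lower. Another 1 was within the size rule, and 2 were below an FPKM of 1 in both libraries. Over all counted genes, 8.54% were higher and 12.4% lower, and 1 lower gene of the 7 counted here is near that second share. The filter shapes the counts of the 9 genes, because Il6, Il23a and Il27 were counted only through their LPS values. In bulk RNA such as this, a smaller number of expressing cells and less RNA per cell cannot be told apart.

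**Figure D1:**
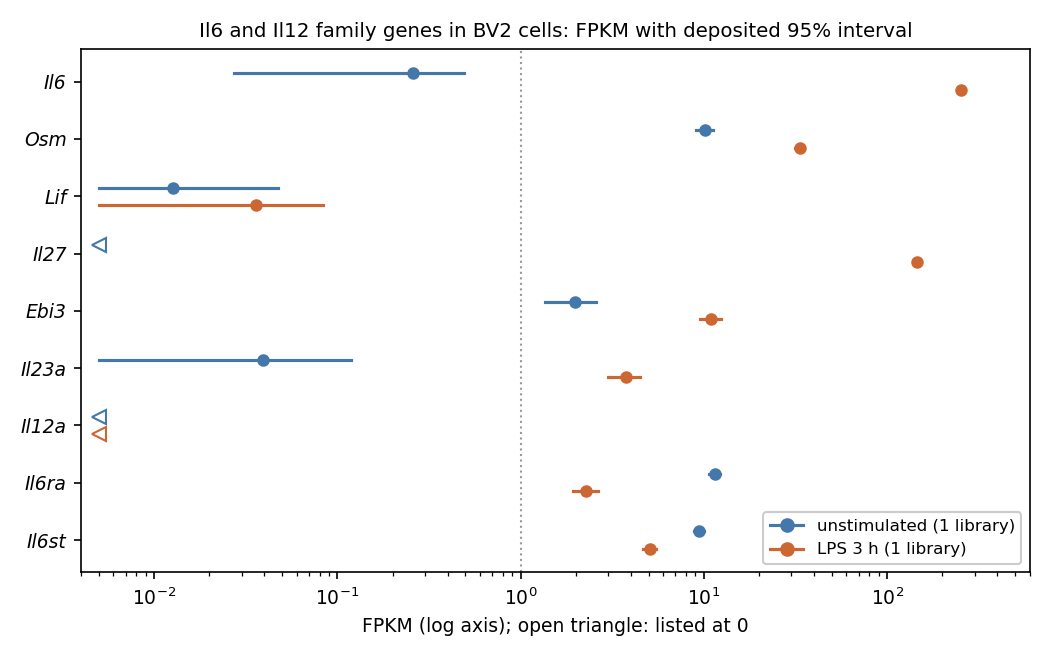
FPKM (log axis) of the 9 genes in the unstimulated library (blue) and the LPS library (orange), 1 library each, with bars for the deposited 95% interval, cut at the left edge where it reaches lower, and open triangles for values listed at 0. The dotted line is the filter at an FPKM of 1: Il6 and Il27 cross it to 254 and 146, Il6ra and Il6st move to the left, and Lif and Il12a stay to the left of it in both libraries.

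Il6, the acute phase cytokine of activated macrophages (mm9 chromosome 5, 30339701 to 30346508), had an FPKM of 0.258 (0.0272 to 0.488) in the unstimulated library, which is 5 implied fragments. In the LPS library it stood at 254 (247 to 261), from 5180 fragments. The change was 7.66, rank 10 among the 10034 counted genes from the highest down. Without the pseudocount the ratio was 986 (422 to 3039), where the interval is the exact conditional 95% interval of the fragments and covers counting error only. The width of this interval comes from the 5 fragments of the unstimulated library. By level, Il6 moved from rank 11078 to rank 392 of 21593 genes.

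Osm, a macrophage and neutrophil cytokine that acts on stroma, endothelium and glia (mm9 chromosome 11, 4136788 to 4141029), was already expressed without LPS. Its FPKM was 10.2 (9.12 to 11.2) before and 33.3 (31.4 to 35.1) after LPS, from 380 and 1307 fragments. The ratio was 3.27 (2.92 to 3.68) and the change 1.62, the smallest of the 5 rises as reported, although with a pseudocount of 5 it (1.34) was above Ebi3 (1.20) and Il23a (0.80). Lif, the cytokine used to keep mouse embryonic stem cells undifferentiated, lies next to Osm with 16541 bases between the 2 loci (4157571 to 4172517). Its FPKM was 0.0127 and 0.0362, from 1 and 3 fragments, so a difference was not detectable at this depth and no ratio is given. Il6 and Lif both have a kappaB match in the window shown, and their LPS values rest on 5180 and 3 fragments. Lif has 2 transcript rows, starting at 4157571 and 4167098, and nearly all of its implied fragments fall on the later start. The window of Lif, given in another genome build, was not matched to either row.

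Il27, the helical subunit of the cytokine IL27 (mm9 chromosome 7, 133732809 to 133738424), was listed at 0 in the unstimulated library. In the LPS library it was at 146 (138 to 153), from 1683 fragments, with a change of 7.20 and rank 14 among counted genes. No ratio is given against a value listed at 0. Its partner Ebi3, a soluble protein shaped like a cytokine receptor (mm9 chromosome 17, 56092046 to 56096445), was at 1.98 (1.37 to 2.59) and 10.98 (9.58 to 12.4), from 42 and 245 fragments. The ratio was 5.55 (3.99 to 7.90) and the change 2.01. So the partner with transcripts in resting cells was Ebi3, and the more abundant partner after LPS was Il27. Within the LPS library the FPKM of Il27 was 13.3 (11.6 to 15.2) times that of Ebi3.

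Il23a, the helical subunit that with the product of Il12b forms IL23 (mm9 chromosome 10, 127733196 to 127735140), rose from an FPKM of 0.0394 (0 to 0.118), which is 1 fragment, to 3.75 (3.00 to 4.50), from 100 fragments. The ratio of 95.2 has a counting interval of 16.7 to 3798 because of that single fragment. The change was 2.19, and 0.80 with a pseudocount of 5, which is short of the size rule. Il12a, the corresponding subunit of IL12 (mm9 chromosome 3, 68494566 to 68502469), has 2 transcript rows, and both were listed at 0 in both libraries. Of the helical subunits of the Il12 family, the LPS library thus held Il27 at the highest level, Il23a at a low one and Il12a at 0.

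The receptor chains did not follow the ligands. Il6ra, which gives cells their sensitivity to interleukin 6 and is found on few cell types (mm9 chromosome 3, 89673246 to 89717084), fell from 11.4 (10.6 to 12.3) to 2.28 (1.92 to 2.63), from 789 and 165 fragments. The LPS value was lower by a factor of 5.02 (4.24 to 5.98), with a change of -1.92, rank 151 from the lowest among counted genes. Il6st, the gp130 chain that nearly all cells carry (mm9 chromosome 13, 113254278 to 113297068), was at 9.44 (8.86 to 10.0) and 5.06 (4.65 to 5.47), from 1088 and 613 fragments. Its intervals were separate and its LPS value was lower by a factor of 1.86 (1.69 to 2.06), but the change of -0.78 did not pass the size rule. After rescaling to TPM the change was -1.05, past the rule. The median change of all counted genes was -0.24, in the same direction as Il6st.

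The order of the 2 receptor chains turned. In the unstimulated library the FPKM of Il6st was 0.825 (0.752 to 0.905) times that of Il6ra, and in the LPS library 2.22 (1.87 to 2.66) times. In the unstimulated library Il6ra, Osm and Il6st were the 3 most abundant of the genes, with overlapping intervals between neighbours in that order, followed by Ebi3 and then Il6, Il23a and Lif, whose intervals also overlapped in turn. In the LPS library the order was Il6, Il27, Osm, Ebi3, Il6st, Il23a, Il6ra and Lif, and each neighbour's interval was separate from the next. The summed FPKM of the 9 genes was 33.3 before LPS and 455 after it. Osm, Il6st and Il6ra held 93.1% of the first sum and 8.92% of the second, whereas Il6 and Il27 held 0.774% and 87.8%.

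**Figure D2:**
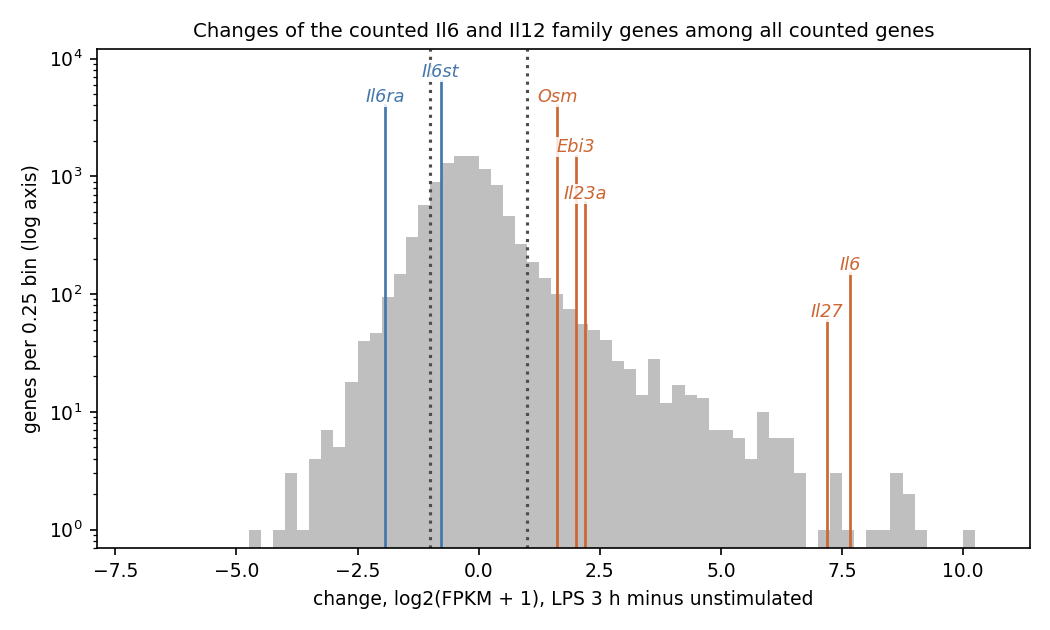
Number of genes (log axis) by change in log2(FPKM + 1), LPS minus unstimulated, for the 10034 counted genes in grey, with lines at the 7 counted genes of both families (label heights are arbitrary) and dotted lines at the size rule. Il6 and Il27, at 7.66 and 7.20, lie in the sparse right tail, Osm, Ebi3 and Il23a lie between 1.62 and 2.19, and Il6ra, at -1.92, is on the left.

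The directions of the 7 counted genes were the same under other pseudocounts and under TPM, median and quantile scaling. The size of the change of the genes that start near 0 depended on the pseudocount. For Il27 it was between 4.91 with a pseudocount of 5 and 10.5 with a pseudocount of 0.1, and for Il6 between 5.62 and 9.47. Osm, which was well above 1 FPKM in both libraries, stayed between 1.34 and 1.90, and Il6ra between -2.28 and -1.18.

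**Figure D3:**
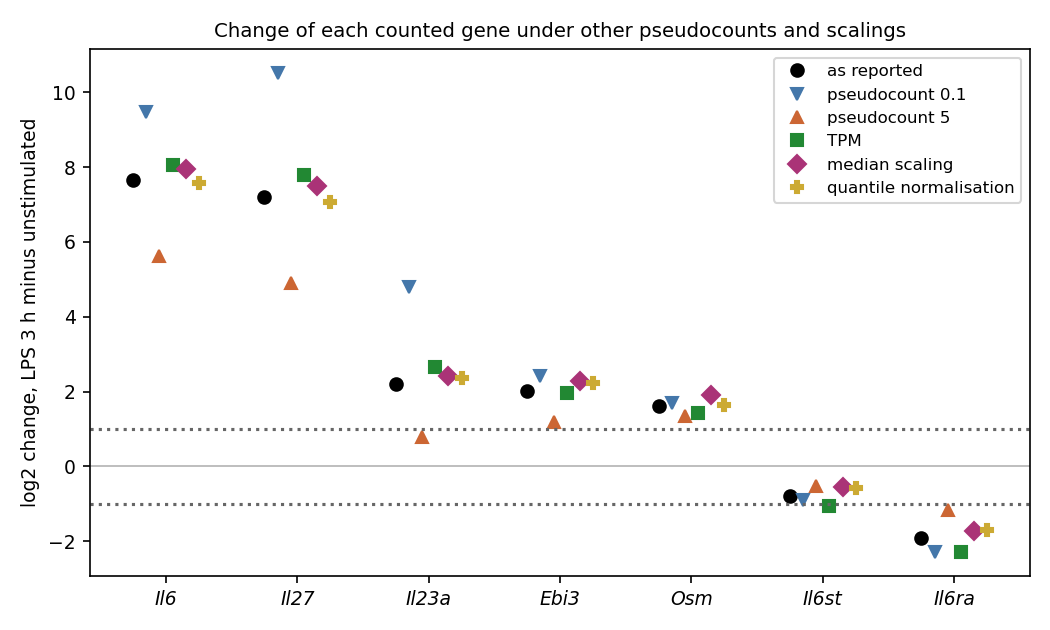
Log2 change (LPS minus unstimulated) of the 7 counted genes as reported, with pseudocounts of 0.1 and 5, and after TPM, median scaling and quantile normalisation; dotted lines mark the size rule. Il23a is inside the rule only with a pseudocount of 5 (0.80) and Il6st is outside it only after TPM (-1.05).

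The genes with the most similar values in the 2 libraries were found by distance on the log2(FPKM + 1) scale, over 2 libraries only. Nearest to Il6 were Ifit3 (0.406 and 235 FPKM) and the chemokine gene Cxcl2 (0.363 and 217). Nearest to Il27 were Lcn2 (0.281 and 126) and Ifit3b (0.201 and 97.8), and nearest to Il23a were Iigp1 (0 and 3.69) and Vcam1 (0 and 3.58). Osm was closest to Irak2 (9.37 and 34.3) and Tmem229b (9.60 and 29.8). Agtrap (2.17 and 11.2) was closest to Ebi3, and S1pr1 (11.9 and 2.16) and Tmem65 (10.6 and 2.20) to Il6ra. With 2 libraries this likeness says only how near the levels are, and the interval of Irak2 in the LPS library (5.03 to 79.4) is wide. The genes nearest to Il27 were the least alike, at distances of 0.413 (Lcn2) and 0.627 (Ifit3b). In the LPS library the intervals of the genes nearest to Il6 and to Il27 lay below those of Il6 and Il27, without overlap.

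Other ligands of the gp130 group were near 0. All 6 on the list, among them Il11, Cntf, Clcf1, Ctf1 and Ctf2, were below an FPKM of 1 in both libraries. Among them Cntf, a survival factor of neurons, was at 0.637 (0.296 to 0.977) without LPS and had an upper bound of 0.0866 after it. Clcf1 was listed at 0 and was at 0.282 (0 to 0.565) after LPS, and Ctf1 was at 0.0798 and 0. Of 8 other receptor chains, only Il12rb1 and Il12rb2, the chains of the IL12 receptor, were counted, and neither passed the size rule. Il12rb1 was at 0.375 (0.215 to 0.535) and 1.10 (0.837 to 1.37), and Il12rb2 at 1.93 (1.57 to 2.28) and 2.58 (2.17 to 2.98). Of the specific chains for cytokines that rose, those other than Il6ra were at or near 0: Osmr was listed at 0 in both libraries, Il27ra was at 0.0371 and 0, and Il23r at 0 and 0.0190. Lifr was at 0.103 and 0.0164. The genes of both families that rose thus encode secreted cytokines or subunits of them. Of the receptor chains listed here, Il6ra, Il6st, Il12rb1 and Il12rb2 reached an FPKM of 1 in at least 1 library.

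Of 57 listed genes of signalling and control around these cytokines, which include the ligands and receptor chains just described, 56 had a row and 43 were counted. Among those, 26 were higher and 2 lower, beside 8.54% and 12.4% of all counted genes, and their median change was 1.70 beside -0.24. The lists were chosen with earlier results of these data known, so these values describe the lists and are no test. In the signalling chain 3 genes passed the rule: Jak2 (5.02 and 28.9 FPKM), Tyk2 (3.57 and 12.3) and Stat3 (5.53 and 18.6). Jak1 (14.6 and 17.9) and Jak3 (1.62 and 1.80) did not, and Stat4, the factor that IL12 activates, was listed at 0 in both libraries.

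Among 9 inhibitors, 3 were higher and 1 lower, beside 8.54% and 12.4% of all counted genes, and their median change was 0.12. Socs3, which binds gp130 and blocks the signal of interleukin 6, rose from 2.02 (1.64 to 2.41) to 37.8 (36.2 to 39.4). Socs1 rose from 0.269 (0.0494 to 0.489) to 6.70 (5.63 to 7.77), and Cish from 1.49 to 19.2. Ptpn6, the phosphatase SHP1, fell from 99.3 (96.2 to 102) to 46.9 (44.8 to 48.9), a change of -1.07. Of the sheddases that can cut Il6ra from the cell surface, Adam10 fell from 13.5 (12.7 to 14.2) to 5.68 (5.21 to 6.16), and Adam17 was at 19.6 (18.7 to 20.5) and 27.9 (26.9 to 29.0), within the rule. Ptpn6 and Adam10 were both within the rule after median scaling.

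Of 6 genes that set the stability of cytokine mRNA, 3 rose: Zc3h12a, the nuclease Regnase-1 that degrades Il6 mRNA (2.10 to 22.0 FPKM), Arid5a, which stabilises it (4.05 to 26.4), and Zfp36, which promotes decay of AU-rich mRNA (34.7 to 136). Genes of factors known to act in opposite ways on Il6 mRNA thus rose together. For these 6 genes and the lists that follow, the share called higher over all counted genes was 8.54%. The interval of Arid5a in the unstimulated library was wide (0.947 to 9.02) but separate from that in the LPS library (25.4 to 27.5). Of 11 transcription factors that act on the Il6 or Il12b genes, 10 rose, with a median change of 1.92: Irf1, Nfkbiz, Nfkb1, Cebpd, Rela, Irf5, Rel, Atf3, Spi1 and Cebpb. Nfkbiz, a nuclear cofactor of NF-kB needed for Il6 transcription, rose from 2.92 (2.47 to 3.37) to 45.0 (43.3 to 46.7). Irf8 was at 38.2 (36.6 to 39.8) and 37.3 (35.7 to 38.9). Of 10 genes known as Stat3 targets, 9 rose, with a median of 3.06: Saa3, Lcn2, Icam1, Socs3, Bcl3, Junb, Pim1, Cebpd and Il4ra. Mcl1 was at 116 and 175, a change of 0.60. Several of these genes are also known NF-kB targets, and the part of each pathway in their rise was not tested.

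**Figure D4:**
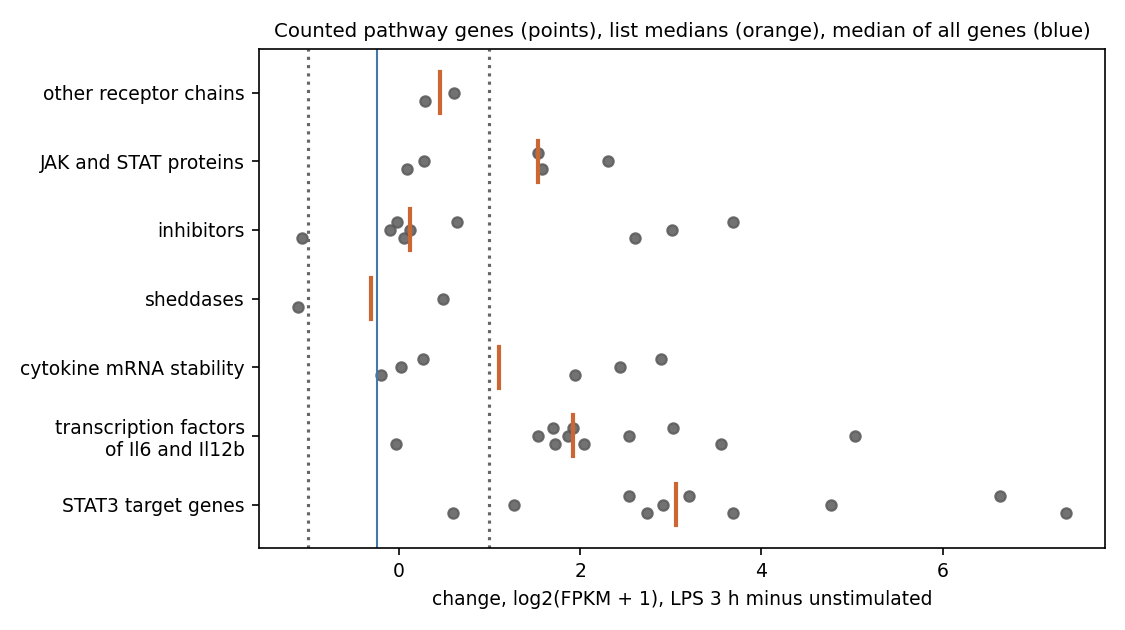
Change in log2(FPKM + 1), LPS minus unstimulated, of the counted genes of 7 lists around interleukin 6 and 12 signalling, 1 point per gene, with the list median in orange, the median of all counted genes (-0.24) in blue and the size rule dotted. Transcription factors and Stat3 target genes lie mostly right of the rule, and receptor chains inside it; the list of other gp130 ligands had 0 counted genes and is not drawn.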

How the data were processed

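RNA libraries of 76-base reads were made with a strand-specific kit from Trizol-extracted RNA, per the labels' protocols. The authors deposited FPKM values with bounds, made with Cufflinks on genome build mm9 per the submitters' processing notes; the sources read here give no version, aligner or selection of RNA. There were 28246 rows per table. Symbols came from a RefSeq table of GRCm38.p6, used for names only (97.6% of rows matched; the others kept their accession). Rows with a status other than OK in either library (391) and of small RNA genes (711 further) were left out. Starts were read as 0-based and printed 1-based. Fragments were implied as (2 × FPKM divided by the upper half-width) squared; of rows with 0.5 to 50 fragments, 67.5% (unstimulated) and 68.9% (LPS) came within 0.05 of a whole number. By the FPKM worth of 1 fragment, the denominators of FPKM differed by a factor of 1.05, LPS over unstimulated.

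Intervals of ratios are exact conditional (Clopper-Pearson) 95% intervals. Reads carry no molecular identifiers, so these cover counting error only. The members and lists were chosen with earlier results of these data known. Named genes are the members, list genes past the size rule (or up to the 3 most abundant others) and the 2 genes nearest to each member past it; some genes these rules name are not reported here. Alternatives were pseudocounts of 0.1 and 5, no filter or one at an FPKM of 5, TPM, median and quantile scaling, the most abundant row per gene, and ratio intervals from the deposited bounds. Python 3.11.15, pandas 2.3.3, numpy 2.4.6 and scipy 1.17.1 were used, and scripts were tested on simulated data.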

Additional observations from a re-analysis of the deposited data

How the results depend on the processing

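Of the counts over the 9 genes, the number higher was 5, or 4 with a pseudocount of 5 and with a filter at an FPKM of 5, and the number lower was 1, or 2 after TPM, when Il6st was added. The 2 pathway genes called lower became 1 with a pseudocount of 5 and 1 after quantile normalisation, 0 after median scaling and 3 after TPM. Il23a had no value with the filter at an FPKM of 5, and its change was 0.80 with a pseudocount of 5. Relative to the deposited FPKM, the median change of all counted genes moved by -0.24 after TPM, 0.24 after median scaling and 0.11 after quantile normalisation. Over all genes, 857 were higher and 1248 lower as reported, 576 and 354 with a pseudocount of 5, 982 and 2061 with a pseudocount of 0.1, 766 and 2350 after TPM, and 1141 and 788 after median scaling. Intervals from the deposited bounds gave 410 to 2370 for the ratio of Il6 and 13.3 to 683 for that of Il23a. Ratios of Il12b to its partners and of Ebi3 to Il12a were not run. No paired analysis was possible because each group has 1 library. Depth limits Lif, Il12a, and the unstimulated values of Il6, Il23a and Il27.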

Other observations

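Genes beside the members on the chromosome were looked at within 50 kb of each locus in mm9, with no overlap between any member and a neighbour. The choice of this window was made after values of the members had been seen. The surroundings of Il27 held more genes that rose than those of the other members. Of its 4 neighbours, all counted, 3 were higher, beside 8.54% of all counted genes: Apobr, a lipoprotein receptor gene whose locus ends 202 bases from that of Il27 (8.94 to 46.8 FPKM), Cln3, a lysosomal membrane protein gene (16.2 to 65.3), and Nupr1, a stress-response gene (20.6 to 254). Eif3c, a translation initiation factor gene, was at 70.5 and 122, within the size rule. Apobr was expressed in the unstimulated library, where Il27 was listed at 0.

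Il23a lies 3290 bases from Stat2, a transcription factor gene of the interferon response, which went from 1.78 to 23.0 FPKM, a change of 3.11. The other 4 counted neighbours of Il23a were within the size rule, among them Pan2, at 2.55 and 1.36. Beside Osm, Castor1 was at 1.08 and 1.26 and Tbc1d10a at 10.3 and 15.9, both within the rule. The neighbour of Il6, the thymidylate synthase gene Tyms, had 17.3 (14.2 to 21.3) FPKM before LPS and 8.77 (8.10 to 9.43) after it, within the rule. Il31ra, a receptor gene related to Il6st and 15947 bases from it, was listed at 0 in both libraries, as was She beside Il6ra, whereas Atp8b2 on the other side of Il6ra was at 2.80 and 6.16.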
